A study of Mus musculus with 2 samples.

Results

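The genes described here are 48 nuclear genes that encode subunits of the mitochondrial respiratory chain and ATP synthase. They were chosen by symbol from a fixed list, set with earlier results of these data known. All 48 were found among the 32285 genes of the files. Of these, 17 belong to complex I, 4 to complex II, 8 to complex III, 10 to complex IV and 9 to complex V. Ndufa4 was counted with complex IV.

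The respiratory chain sits in the inner mitochondrial membrane. Complex I takes electrons from NADH and complex II takes them from succinate. Complex III passes them through cytochrome c to complex IV, which reduces oxygen. Complexes I, III and IV pump protons, and complex V, the ATP synthase, uses the resulting gradient to make ATP. The mitochondrial genome encodes core subunits of complexes I, III, IV and V, while complex II is encoded in the nucleus only. In the brain this chain supplies most of the ATP that neurons use to restore ion gradients after firing.

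The nuclei came from hippocampi of C57BL/6J mice aged 6 weeks. At postnatal day 0 both lateral ventricles had received an adeno-associated virus (AAV). In the AAV-STOP group the vector carried human MAPT with an early stop codon, so that the transcript but no tau protein was made. In the AAV-TAU group it carried wild-type human tau of the full-length 2N4R form. Each group is a pool of tissue from 3 mice, sequenced as a single library, so the spread between animals is unknown, nothing was tested, and the vector cannot be told apart from any other difference between the libraries. The deposited matrices hold no row for the transgene, so which nuclei were transduced is not known here.

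The AAV-STOP library held 130252240 UMIs (counted RNA molecules) in 20265 barcodes and the AAV-TAU library 109428807 UMIs in 19596 barcodes. After filtering and removal of doublets, 17622 AAV-STOP and 17256 AAV-TAU nuclei were used, at median depths of 5585 and 4947, and 116 barcode sequences occurred in both libraries. Cell classes were rebuilt from marker genes and are called like a cell type for that reason. Of these, 13 had 100 or more nuclei in each library. A further 3499 AAV-STOP and 3376 AAV-TAU nuclei stayed without a name, among them 1 cluster of 34 AAV-STOP and 462 AAV-TAU nuclei with a median of 1769 UMIs. The summed level of the 48 genes in all nuclei without a name was 1.38 times higher in AAV-TAU (1.36 to 1.40). Levels are UMIs per 1000000 UMIs of the class in that library (CPM). Every interval given is an exact 95% interval of the counts and covers counting error only. The UMIs are not corrected for free RNA in the droplets, whose part in any level was not tested.

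The summed level of the 48 genes was higher in AAV-TAU than in AAV-STOP in 13 of 13 classes. In dentate granule-like nuclei, the most numerous class, it was 2210 CPM (2193 to 2227) in AAV-STOP and 2764 CPM (2742 to 2786) in AAV-TAU, a ratio of 1.25 (1.24 to 1.26). In CA1-like nuclei it was 1981 and 2429 CPM, a ratio of 1.23 (1.21 to 1.24). In CA3-like nuclei it was 1833 and 2247 CPM, a ratio of 1.23 (1.2 to 1.25). In inhibitory neuron-like nuclei it was 2500 and 3020 CPM, which gave the lowest ratio of the 13 classes, 1.21 (1.19 to 1.23). The intervals of these 4 neuronal ratios lie between 1.19 and 1.26.

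Glial and meningeal classes had larger ratios than the 4 neuronal classes above. Finer clusters overlapped: an inhibitory neuron-like cluster was at 1.34 (1.27 to 1.42) and an oligodendrocyte-like cluster at 1.31 (1.24 to 1.38). Nuclei like those of oligodendrocytes, the myelin-forming cells, held 2723 CPM (2676 to 2770) in AAV-STOP and 3852 CPM (3799 to 3904) in AAV-TAU, the highest ratio of the 13 classes at 1.41 (1.38 to 1.45). The ratio was 1.40 (1.32 to 1.48) in fibroblast-like nuclei, 1.36 (1.31 to 1.41) in oligodendrocyte precursor-like nuclei, 1.35 (1.27 to 1.43) in microglia-like nuclei and 1.33 (1.29 to 1.38) in astrocyte-like nuclei. The oligodendrocyte-like interval does not overlap that of the granule-like class, but with 1 library per group this compares 4 pools of nuclei and not the response of cell types. The subicular or cortical-like class had a ratio of 1.23, the immature neuron-like class 1.23, the Cajal-Retzius-like class 1.30 and the newly formed oligodendrocyte-like class 1.40.

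**Figure D1:**
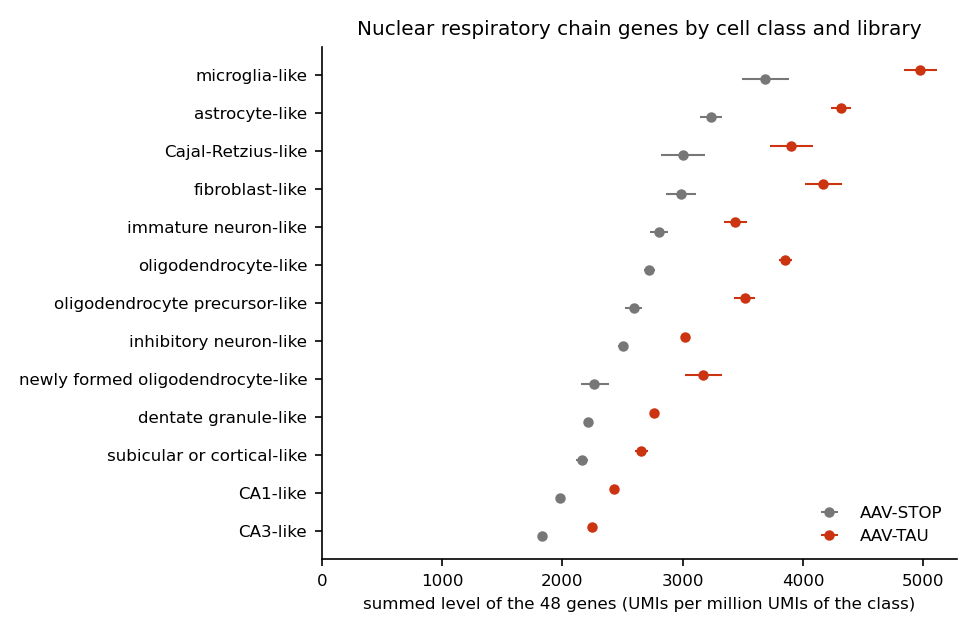
Summed level of the 48 genes (x axis, UMIs per 1000000 UMIs of the class) in the 13 cell classes, 1 library per group, with exact 95% Poisson intervals. The AAV-TAU point lies to the right of the AAV-STOP point in each class, from 1833 against 2247 CPM in CA3-like nuclei to 3685 against 4975 CPM in microglia-like nuclei.

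The order of the classes was similar in both libraries. Microglia-like nuclei were highest, at 3685 CPM (3493 to 3885) in AAV-STOP and 4975 CPM (4838 to 5114) in AAV-TAU, and astrocyte-like nuclei were next, at 3234 and 4316 CPM. CA3-like nuclei were lowest in both, below CA1-like nuclei, with the subicular or cortical-like and granule-like classes above them. The highest class stood 2.01 times above the lowest in AAV-STOP and 2.21 times in AAV-TAU. Between these ends many neighbours could not be ordered: in AAV-STOP the intervals of the astrocyte-like, Cajal-Retzius-like, fibroblast-like, immature neuron-like and oligodendrocyte-like classes overlap from each to the next. In AAV-TAU the same held from astrocyte-like through fibroblast-like and Cajal-Retzius-like to oligodendrocyte-like nuclei. Of the 48 genes, 22 had their highest CPM in microglia-like nuclei in both libraries, but 6 of these 22 were under the limits on UMIs and CPM, given further on, for reading a single gene in that class. The same count was not made over all genes, so 22 of 48 cannot be read as a trait of these genes. Cox7b, a small subunit of complex IV, was highest in inhibitory neuron-like nuclei in both.

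CPM is a share of the RNA of a nucleus, and nuclei of the high classes held little RNA. Counted per nucleus, the order was different: CA3-like nuclei, lowest by CPM, held the most, a mean of 19.4 UMIs of the 48 genes in AAV-STOP and 21.9 in AAV-TAU, while microglia-like nuclei, highest by CPM, held 8.73 and 9.95. Among the named classes the lowest count per nucleus was in oligodendrocyte-like nuclei in AAV-STOP, at 7.73, and in microglia-like nuclei in AAV-TAU. Median depth was 10042 and 9502 UMIs in the CA3-like class and 2214.5 and 1926 UMIs in the microglia-like class. Counts per nucleus also depend on sequencing depth and were not compared between libraries.

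The spread over single nuclei was higher as a whole in AAV-TAU. In granule-like nuclei the quartiles of the genes' UMIs per 10000 UMIs of a nucleus were 17.0, 21.7 and 27.2 in AAV-STOP and 21.9, 27.3 and 33.9 in AAV-TAU. In oligodendrocyte-like nuclei they were 19.2, 26.8 and 35.9 in AAV-STOP and 29.2, 38.9 and 50.1 in AAV-TAU. The lower quartile in AAV-TAU was thus above the AAV-STOP median in both classes. With each nucleus thinned to 1500 UMIs, which left out no nucleus of the 13 classes, the mean was 3.37 and 4.27 UMIs in granule-like nuclei, and nuclei with none of the 48 genes made up 4.06% of AAV-STOP and 1.66% of AAV-TAU nuclei of the class. Within finer clusters of the granule-like class the ratio was 1.26, 1.24 and 1.22, and within those of the inhibitory neuron-like class it ran from 1.16 to 1.34.

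Single genes were read where they had 100 or more UMIs over both libraries and a mean of 10 CPM or more, as log2 of (AAV-TAU CPM + 5) over (AAV-STOP CPM + 5). A gene counts as higher or lower where this ratio is 1.2 times or more in that direction, a size chosen in place of a test. Of 477 pairs of a gene and a class that could be read, 300 were higher in AAV-TAU and 2 were lower. By class, 7.89% to 20.3% of all genes read were higher and 0.285% to 19.6% were lower. The pairs reuse the same genes and the same 2 libraries and are not independent. In granule-like nuclei 31 of 48 genes were higher and none was lower, against 8.2% of all 9109 genes read there that were higher and 0.285% that were lower. In CA1-like nuclei 28 of 47 were higher and none was lower, against 7.89% and 0.356% of all genes, and Sdhd was under the limit.

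Among the other neuronal classes 25 of 47 genes were higher in CA3-like nuclei (10.9% of all genes), 22 of 48 in inhibitory neuron-like nuclei (9.93%), 24 of 46 in subicular or cortical-like nuclei (14.6%) and 22 of 41 in immature neuron-like nuclei (14.2%). Among glia 37 of 48 were higher in oligodendrocyte-like nuclei (19.4% of all genes), 36 of 45 in astrocyte-like nuclei (19.9%) and 36 of 43 in oligodendrocyte precursor-like nuclei (17.8%). In microglia-like nuclei 18 of 30 genes were higher (20.3% of all genes) and 1 was lower (17.9%). In fibroblast-like nuclei 12 of 20 were higher (20% of all genes) and 1 was lower (19.6%). In the smallest classes few genes could be read: 4 of 5 were higher in Cajal-Retzius-like nuclei (17.1%) and 5 of 9 in newly formed oligodendrocyte-like nuclei (15.2%). None of the 48 genes was lower in the other 9 of these 11 classes, where the share of all genes that was lower was 1.56% in CA3-like, 1.21% in inhibitory neuron-like, 4.21% in subicular or cortical-like, 8% in immature neuron-like, 4.91% in oligodendrocyte-like, 10.7% in astrocyte-like, 8.61% in oligodendrocyte precursor-like, 18.2% in Cajal-Retzius-like and 16% in newly formed oligodendrocyte-like nuclei. The share of the members read that was higher exceeded the share of all genes in each of the 13 classes. All genes were not matched to the members in gene span, which is described further on. The 48 genes and the limit of 1.2 times were chosen with earlier results of these data known. The limits favour genes that are high in at least 1 library, so these counts leave out the lowest members of the small classes.

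**Figure D2:**
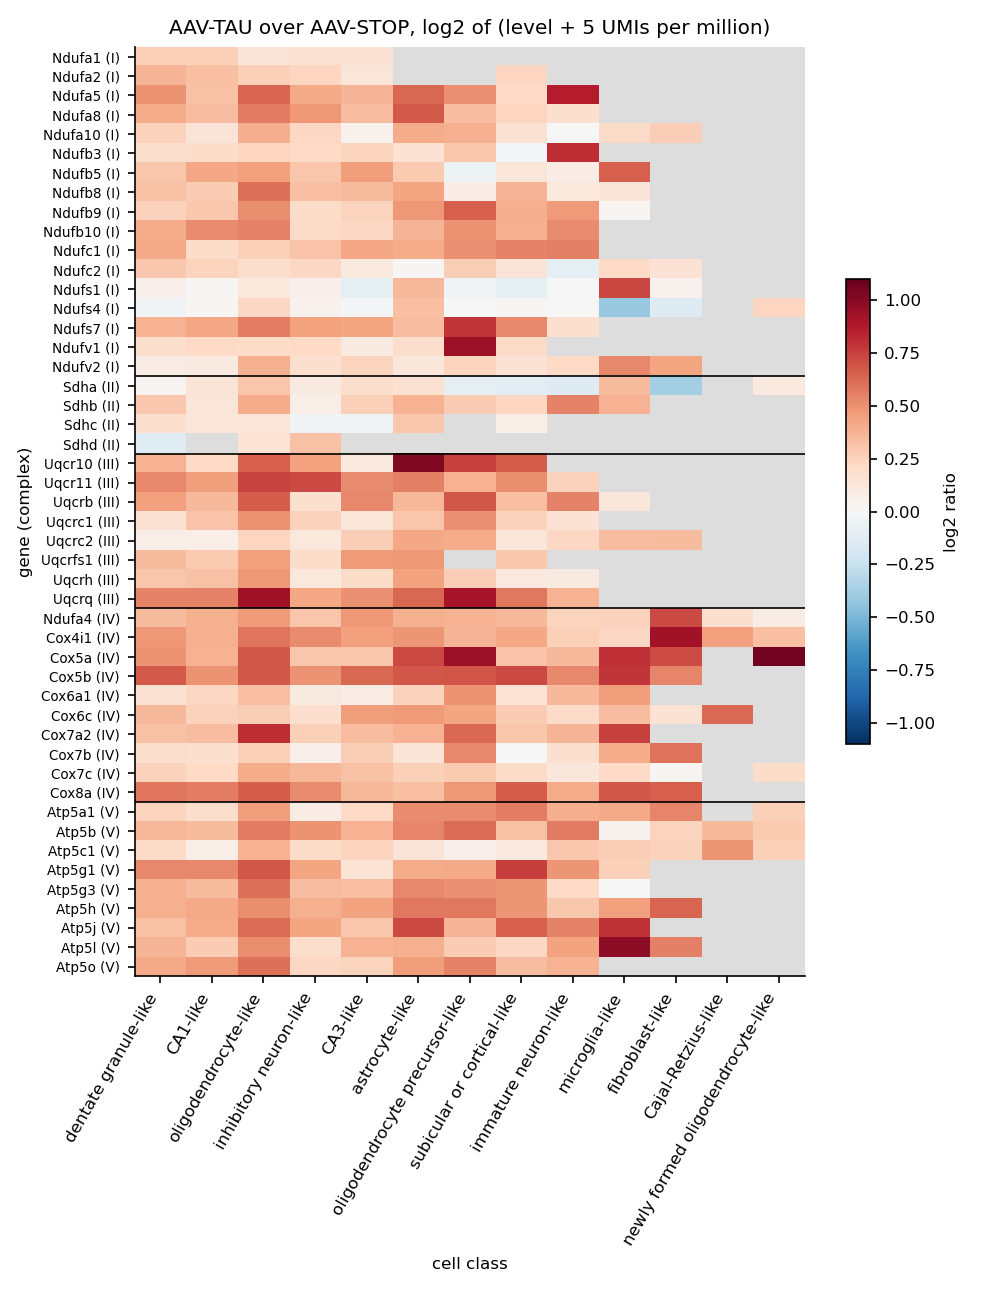
Log2 ratio of AAV-TAU over AAV-STOP, with 5 CPM added to each level, for the 48 genes (rows, by complex) in 13 cell classes (columns); grey cells fell under the limits on UMIs and CPM. Red cells prevail: 300 of 477 pairs were higher by 1.2 times or more and 2 were lower, Ndufs4 in microglia-like nuclei and Sdha in fibroblast-like nuclei. By class, 7.89% to 20.3% of all genes read were higher and 0.285% to 19.6% were lower.

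Complex IV, cytochrome c oxidase, had the largest ratio in granule-like nuclei. Its 10 genes summed to 623 CPM (614 to 632) in AAV-STOP and 826 CPM (815 to 838) in AAV-TAU, a ratio of 1.33 (1.30 to 1.35), and 7 of the 10 were higher. Cox5b had the largest ratio of the 48 genes there, at 35.2 CPM in AAV-STOP and 59.2 CPM in AAV-TAU, a ratio of 1.68 (1.55 to 1.83). Cox8a was at 51.9 and 80.3 CPM, a ratio of 1.55 (1.45 to 1.66). Both encode small structural subunits that surround the catalytic core. Cox7c, which had the most UMIs of complex IV over all nuclei, was at 98.1 and 118 CPM in granule-like nuclei, a ratio of 1.2 (1.14 to 1.27). With 5 CPM added to each level its log2 ratio was 0.25, just short of the limit.

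**Figure D3:**
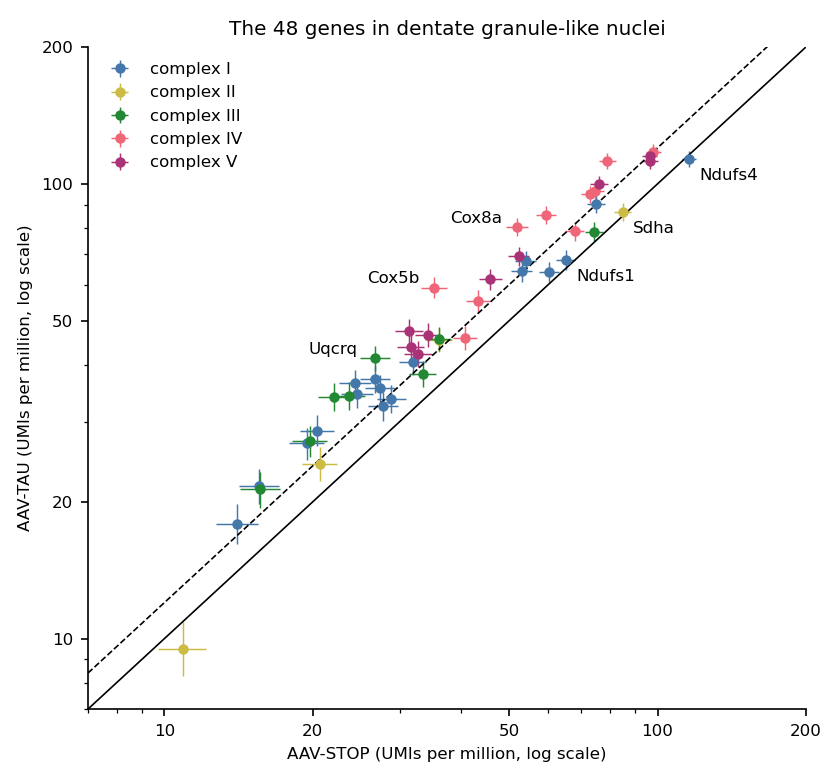
Level of each of the 48 genes in dentate granule-like nuclei of AAV-STOP (x axis) and AAV-TAU (y axis), in CPM on log scales, with exact 95% Poisson intervals and colours by complex. The solid line marks equal levels and the dashed line a ratio of 1.2; Cox5b, Cox8a and Uqcrq lie farthest above the lines, and Ndufs4, Sdha and Ndufs1 lie near equal levels.

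Cox5b, Cox8a, Cox5a and Cox7a2 were higher in every class where they could be read, which was 11 classes for Cox5b, 11 for Cox8a, 12 for Cox5a and 10 for Cox7a2. How many of all genes were higher in every class read was not counted, so this cannot be read as a trait of these genes. Cox5b, Cox8a and Cox7a2 span under 5 kb, while Cox5a spans 11.2 kb. By class, 39.0% (CA3-like) to 71.4% (Cajal-Retzius-like) of all genes under 5 kb were higher. Cox5b was at 30.4 and 44.8 CPM in CA1-like nuclei, at 54.6 and 90.6 CPM in oligodendrocyte-like nuclei, and at 66.8 and 119 CPM in microglia-like nuclei. Its log2 ratio ran from 0.49 to 0.78 over the 11 classes. Cox5a was at 59.4 and 85.4 CPM in granule-like nuclei, and its largest log2 ratio was 1.06, in newly formed oligodendrocyte-like nuclei, where it was at 65.8 and 142 CPM. Cox4i1, one of the largest nuclear subunits of complex IV, was read in 13 classes and higher in 12, with a log2 ratio of 0.22 in microglia-like nuclei. Cox6a1, Cox7b and Cox7c were higher in 4 classes each, of 10, 11 and 12 in which they were read.

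Complex V, the ATP synthase, had 9 genes that summed to 497 CPM in AAV-STOP and 638 CPM in AAV-TAU in granule-like nuclei, a ratio of 1.28 (1.25 to 1.31), with 7 of 9 higher. Atp5h and Atp5j, which encode parts of the stalk that holds the catalytic head, were higher in each of the 11 and 10 classes where they were read. How many of all genes were higher in every class read was not counted. Atp5b, the catalytic beta subunit, was at 76.2 and 99.9 CPM in granule-like nuclei and was higher in 11 of 13 classes. Atp5g1, one of the genes for the membrane ring subunit c, was at 31.4 and 47.4 CPM, a ratio of 1.51 (1.38 to 1.65). Atp5a1, the alpha subunit and the most counted gene of complex V over all nuclei, was at 96.3 and 115 CPM, and Atp5c1, the gamma subunit, at 96.7 and 112 CPM. These 2 had log2 ratios of 0.24 and 0.21, below the limit in granule-like nuclei.

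Complex III, cytochrome bc1, summed to 252 and 320 CPM in granule-like nuclei, a ratio of 1.27 (1.23 to 1.31), with 6 of 8 genes higher. Uqcrq was at 26.8 CPM in AAV-STOP and 41.3 CPM in AAV-TAU, a ratio of 1.54 (1.40 to 1.70), and it was higher in each of the 9 classes where it was read. Here too, all genes were not counted in this way. In oligodendrocyte-like nuclei Uqcrq was at 34.6 and 70.0 CPM, a ratio of 2.03 (1.68 to 2.45). Uqcr10 had the largest single ratio among astrocyte-like nuclei, at 21.3 and 48.3 CPM, with a wide interval of the ratio from 1.52 to 3.45. Uqcrq, Uqcr10 and Uqcr11 encode small accessory subunits. The genes of the larger core proteins had smaller ratios: in granule-like nuclei Uqcrc1 was at 33.4 and 38.2 CPM and Uqcrc2 at 74.5 and 78.5 CPM.

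Complex I, NADH dehydrogenase, summed to 685 and 813 CPM in granule-like nuclei, a ratio of 1.19 (1.16 to 1.21), and 10 of 17 genes were higher. Ndufa5, an accessory subunit, was at 24.4 and 36.4 CPM, a ratio of 1.49 (1.35 to 1.65). Ndufs7, which carries an iron-sulfur cluster, was at 19.4 and 26.9 CPM and was higher in 8 of 9 classes. Ndufs4 was the most counted gene of complex I over all nuclei, at 106 and 107 CPM. In granule-like nuclei it was at 116 CPM in AAV-STOP and 113 CPM in AAV-TAU, a ratio of 0.98 (0.93 to 1.03). Ndufs1, the largest subunit, was at 65.2 and 68.1 CPM there, a ratio of 1.04 (0.98 to 1.12), and over 11 classes it was higher by the limit in 2. Ndufs4 was higher in 1 of 12 classes and lower in 1.

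Complex II, succinate dehydrogenase, had the smallest ratio in granule-like nuclei and the smallest of the 5 complexes in 11 of 13 classes. The exceptions were CA3-like nuclei, where complex I had the smallest ratio (1.13, against 1.14 for complex II), and microglia-like nuclei, where complex III had (1.27, against 1.40). Among the 11 classes the intervals of complexes II and I lay apart only in granule-like and fibroblast-like nuclei. In CA1-like nuclei they ran from 1.05 to 1.18 and from 1.14 to 1.21. In granule-like nuclei the 4 genes of complex II summed to 153 CPM (148 to 157) in AAV-STOP and 166 CPM (161 to 171) in AAV-TAU, a ratio of 1.09 (1.04 to 1.14). Sdha, the flavoprotein subunit, was at 85.0 and 86.7 CPM in granule-like nuclei, a ratio of 1.02 (0.96 to 1.08). Sdhb, the iron-sulfur subunit, was at 36.0 and 45.4 CPM and was the only one of the 4 that was higher there. Sdhc was at 20.6 and 24.2 CPM and Sdhd at 10.9 and 9.50 CPM, and both anchor the complex in the membrane. Complex II took 6.91% of the UMIs of the 48 genes in AAV-STOP and 6.00% in AAV-TAU.

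In oligodendrocyte-like nuclei the ratio was 1.32 for complex I, 1.25 for complex II, 1.53 for complex III, 1.45 for complex IV and 1.48 for complex V. In astrocyte-like nuclei it was 1.26, 1.21, 1.46, 1.35 and 1.38 in the same order. Complex III stood highest in these 2 glial classes and complex IV in granule-like nuclei, but in each the intervals of the leading complexes overlap. Those of complexes III and IV run from 1.44 to 1.64 and from 1.39 to 1.51 in oligodendrocyte-like nuclei. In astrocyte-like nuclei they run from 1.32 to 1.63 and from 1.27 to 1.44. In granule-like nuclei those of complexes IV, V and III run from 1.30 to 1.35, from 1.25 to 1.31 and from 1.23 to 1.31.

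Other classes are described by the genes with their largest and smallest ratios. In CA1-like nuclei the largest ratios were those of Uqcrq at 20.9 and 32.7 CPM, Cox8a at 46.6 and 71.3 CPM and Atp5g1 at 27.7 and 42.2 CPM. The smallest were those of Ndufs1 at 58.7 and 59.3 CPM, Ndufs4 at 94.8 and 96.0 CPM and Uqcrc2 at 61.9 and 65.3 CPM, with intervals of the ratio that hold 1. In CA3-like nuclei Cox5b was highest in ratio, at 23.8 and 39.6 CPM (1.66, 1.37 to 2.02), and Ndufs1 was lowest, at 60.4 and 55.6 CPM (0.92, 0.80 to 1.06). In inhibitory neuron-like nuclei Uqcr11 was highest in ratio, at 18.1 and 33.2 CPM (1.83, 1.50 to 2.25), and Sdhc lowest, at 26.2 and 25.4 CPM (0.97, 0.80 to 1.17). Cox7b, which had its highest level in that class, was at 115 and 119 CPM there.

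In oligodendrocyte-like nuclei Cox7a2 followed Uqcrq in ratio, at 48.4 and 88.5 CPM (1.83, 1.56 to 2.15), while Ndufs1 was at 71.3 and 77.4 CPM (1.09, 0.94 to 1.26). In oligodendrocyte precursor-like nuclei Ndufv1, the flavoprotein subunit that oxidises NADH, was at 22.1 and 47.2 CPM, a ratio of 2.13 (1.45 to 3.19). In microglia-like nuclei Atp5l, a membrane subunit of complex V, was at 69.4 and 142 CPM, a ratio of 2.05 (1.34 to 3.24). Intervals widen in these small classes, and in microglia-like nuclei the AAV-STOP library held 158 nuclei against 506 in AAV-TAU. A further 2 clusters whose best score was for microglia stayed without a name because they were mixed with neuronal RNA, and they held 235 AAV-STOP and 23 AAV-TAU nuclei. The microglia-like values therefore compare populations that the naming split differently in the 2 libraries, and the part of that split in them was not tested.

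The stretches upstream of 5 of the genes are shown because they hold, or lack, short motifs of factors known to act on respiratory chain genes. NRF1 and GABP are transcription factors, both also known as nuclear respiratory factors. The 5 were chosen after their matches and ratios were seen. Promoter windows from RefSeq (GRCm38.p6, the same sequence as mm10) were found for 38 of the 48 genes and cover 250 bases upstream of the RefSeq start site. Start sites in the GENCODE vM21 annotation can differ, and by that annotation the windows of Ndufa5 and Ndufs7 lie inside the gene. No window was matched for Ndufa2, Ndufb9, Ndufs1, Sdhc, Uqcrb, Uqcrc2, Uqcrq, Cox4i1, Cox6c and Atp5a1. Capitals mark matches to the NRF1 consensus motif or the GABP motif CCGGAAG on either strand, and letters inside an annotated exon of any gene are left out, which removes the GABP matches of Cox6a1 and Atp5h and 2 of the NRF1 matches of Sdha. The stretches are chr1:36691237-36691448 (plus strand) for Cox5b, chr5:115348982-115349129 (minus) for Cox6a1, chr11:115419963-115420127 (minus) for Atp5h, chr10:80406831-80407071 (minus) for Uqcr11 and chr13:74350281-74350308 (minus) for Sdha, each written 5′ to 3′ on its own strand.
Cox5b: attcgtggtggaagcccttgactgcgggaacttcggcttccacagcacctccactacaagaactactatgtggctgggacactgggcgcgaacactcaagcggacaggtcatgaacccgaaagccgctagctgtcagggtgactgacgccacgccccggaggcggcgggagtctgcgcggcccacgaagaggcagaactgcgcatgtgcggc
Cox6a1: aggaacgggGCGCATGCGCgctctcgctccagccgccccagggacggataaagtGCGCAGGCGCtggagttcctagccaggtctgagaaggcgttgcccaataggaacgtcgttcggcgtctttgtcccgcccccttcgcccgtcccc
Atp5h: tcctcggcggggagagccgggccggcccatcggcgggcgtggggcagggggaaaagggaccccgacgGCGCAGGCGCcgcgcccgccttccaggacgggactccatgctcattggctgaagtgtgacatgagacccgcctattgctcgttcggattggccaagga
Uqcr11: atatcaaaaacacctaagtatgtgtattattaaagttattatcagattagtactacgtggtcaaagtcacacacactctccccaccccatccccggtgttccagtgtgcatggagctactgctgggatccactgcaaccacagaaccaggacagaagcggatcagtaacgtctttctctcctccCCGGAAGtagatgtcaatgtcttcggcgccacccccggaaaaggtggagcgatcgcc
Sdha: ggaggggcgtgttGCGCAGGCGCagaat

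The NRF1 motif was in 6 of 38 windows of the genes (15.8%) and in 3.86% of all 27025 windows, 1 per gene. The 6 were Atp5h, Cox6a1, Ndufa5, Ndufa8, Sdha and Sdhd, and the whole Sdha window held 3 matches. All motif counts use whole windows, with letters inside exons kept, and the Ndufa5 window lies wholly in annotated exon. The GABP motif was also in 6 of 38 windows (15.8%), against 7.05% of all, in Atp5h, Atp5l, Cox6a1, Sdhd, Uqcr11 and Uqcrh. The YY1 motif AAGATGGCG was in 0 of 38 and in 0.607% of all windows. The cyclic AMP response element TGACGTCA was in 2 of 38 (5.26%) and in 1.62% of all, and the E-box CACGTG in 4 of 38 (10.5%) and in 6.05% of all. The letters CCAAT were in 15 of 38 (39.5%) and 34.5% of all, and TATAAA in 2 of 38 (5.26%) and 13% of all. All motifs were sought on both strands and could overlap one another. The 38 windows were richer in G and C than all windows, with medians of 54.8% and 52%.

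The ratios in granule-like nuclei of genes with and without a match were close. For the 6 genes with an NRF1 match the median log2 ratio was 0.27 and 3 were higher. For the 32 without one it was 0.32 and 23 were higher. Sdha held the most NRF1 matches and stood at 85.0 CPM in AAV-STOP and 86.7 CPM in AAV-TAU. Cox5b held no NRF1 or GABP match and had the largest ratio of the 48. Both genes were chosen after their values were seen, and they also differ in span, at 28.0 and 2.23 kb. The part of the motifs in the ratios was not tested. A match is a string of letters, and binding was not measured.

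Short genes had larger ratios than long ones among the 48 genes and among all genes alike. In granule-like nuclei the median log2 ratio of all genes read was 0.23 for genes that span under 5 kb in the GENCODE vM21 annotation, 0.11 from 5 to 20 kb, 0.05 from 20 to 100 kb and -0.03 over 100 kb. Of the 48 genes, 13 of the 15 under 5 kb were higher and their median was 0.39, where 44.4% of all genes of that span were higher. The 25 from 5 to 20 kb had a median of 0.33 with 18 higher, where 13.2% of all genes were. None of the 7 from 20 to 100 kb was higher, and their median was 0.08. Ndufs4, which spans 100 kb, Ndufs1 at 33.2 kb and Sdha at 28.0 kb are among the longest of the 48, whereas Cox5b spans 2.23 kb and Cox8a 2.46 kb.

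Across the 48 genes in granule-like nuclei the Spearman correlation of span and log2 ratio was -0.53, and it ran from -0.61 to 0.00 over the 11 classes with 20 or more genes read. The genes share the same 2 libraries and are not independent. Span and complex go together, since Sdha, Sdhb and Sdhc of complex II span 28.0, 18 and 23.4 kb, and their parts in the small ratio of complex II cannot be told apart with 4 genes. Sdhd, at 7.46 kb, is the exception in length and had the lowest log2 ratio of the 48 in granule-like nuclei, -0.13. Its level there was close to the limit of 10 CPM. It was read in 3 classes, with log2 ratios from -0.13 to 0.33, above 0 in 2 of them. Members of 20 to 100 kb differed from class to class. In oligodendrocyte-like nuclei 4 of 7 were higher with a median of 0.31, where 12.8% of all genes of that span were higher with a median of 0.03. In astrocyte-like nuclei 4 of 7 were higher with a median of 0.29 (17.3% and 0.03 for all genes of that span), and in microglia-like nuclei 5 of 6 with a median of 0.34 (18.1% and -0.01). Under 5 kb, 13 of 15 members were higher in oligodendrocyte-like nuclei (52.9% of all genes of that span) and 11 of 13 in astrocyte-like nuclei (57.5%). In microglia-like nuclei 5 of 8 members under 5 kb were higher, near the 61.7% of all genes of that span.

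**Figure D4:**
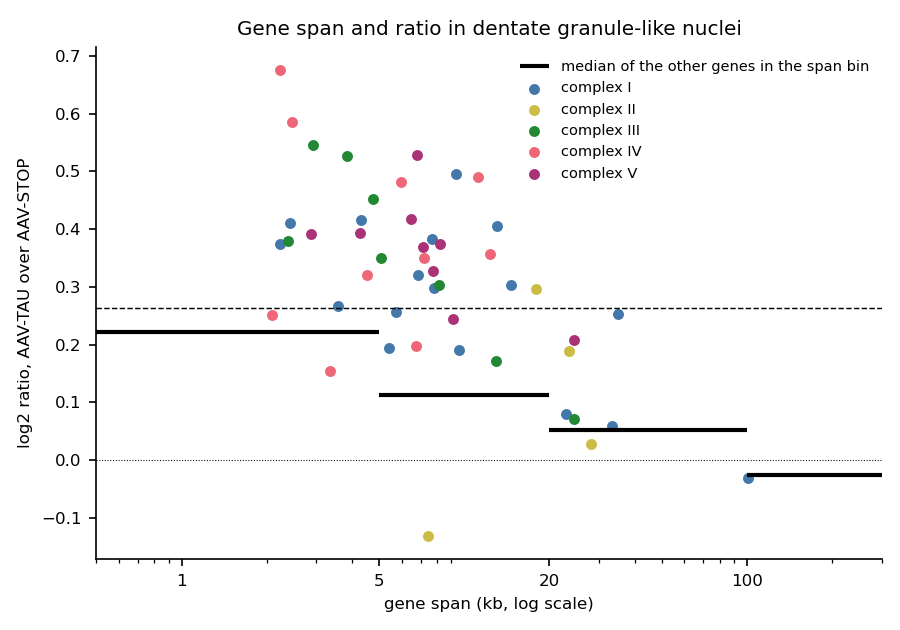
Log2 ratio of AAV-TAU over AAV-STOP (y axis) against gene span (x axis, kb, log scale) for the 48 genes in dentate granule-like nuclei, coloured by complex. Black bars give the median of the other genes in each span bin (0.22, 0.11, 0.05 and -0.03 from short to long), the dashed line the ratio of 1.2, and most of the 48 genes under 20 kb lie above the bar of their bin.

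The mitochondrial share of a nucleus was higher in AAV-TAU as well. The median share in granule-like nuclei was 0.169% (AAV-STOP) and 0.267% (AAV-TAU), that in CA1-like nuclei was 0.121% and 0.219%, and it was higher in AAV-TAU in 12 of 13 classes. The exception was the fibroblast-like class, at 0.379% and 0.369%, in which the 48 genes had a ratio of 1.40. That class pooled a cluster of 148 AAV-STOP and 193 AAV-TAU nuclei (median share 0.322%) and one of 107 and 62 nuclei (0.445%). The part of this difference in mix in the share of the class was not tested. Malat1, an abundant RNA that stays in the nucleus, took a smaller share in AAV-TAU in 13 of 13 classes, with 8.31% and 7.89% in granule-like nuclei. Median depth was also lower in AAV-TAU in 13 of 13 classes.

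Nuclei were also compared within ranges of mitochondrial share. In granule-like nuclei the ratio of the summed level was 1.28 (1.24 to 1.31) below a share of 0.1%, 1.24 (1.22 to 1.26) from 0.1 to 0.3% and 1.15 (1.13 to 1.17) above 0.3%. In CA1-like nuclei it was 1.25 (1.21 to 1.29), 1.2 (1.17 to 1.23) and 1.02 (0.99 to 1.05). In CA3-like nuclei it was 1.25 (1.2 to 1.29), 1.2 (1.15 to 1.25) and 0.98 (0.94 to 1.03), the last from 81 AAV-STOP and 154 AAV-TAU nuclei at 2944 and 2888 CPM. Above 0.3% the count of higher genes was 2 of 47 in CA1-like nuclei, where 9.34% of all genes were higher, and 2 of 29 in CA3-like nuclei, where 15.9% were. It was 13 of 48 in granule-like nuclei of that range, where 6.82% of all genes were higher. The members' shares in CA1-like and CA3-like nuclei of that range were thus below those of all genes, unlike in the whole classes. In the CA1-like and CA3-like nuclei above 0.3% the libraries did not differ beyond counting error, while they did in each range of the other 4 of the 6 largest classes. In oligodendrocyte-like nuclei the ratio was 1.31, 1.39 and 1.37, and in astrocyte-like nuclei 1.27, 1.31 and 1.35.

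**Figure D5:**
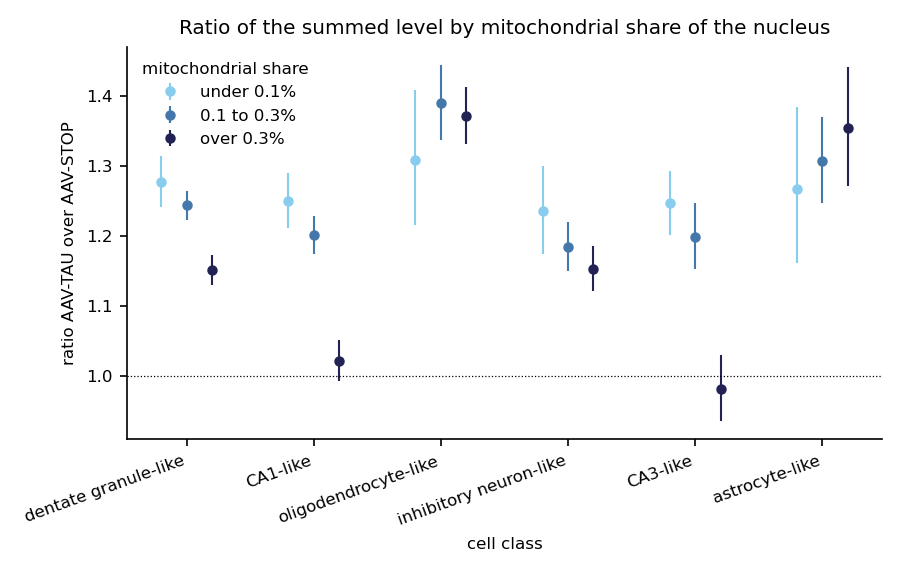
Ratio of the summed level of the 48 genes, AAV-TAU over AAV-STOP (y axis), in nuclei with a mitochondrial share under 0.1%, of 0.1 to 0.3% and over 0.3%, in the 6 largest cell classes, with exact 95% intervals of counting error; the dotted line marks equal levels. In CA1-like and CA3-like nuclei the ratio is 1.25 in the lowest range and 1.02 and 0.98 in the highest, and in oligodendrocyte-like nuclei it stays between 1.31 and 1.39.

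Markers of other cell types were summed in the same way. In granule-like nuclei the 19 marker lists of other classes summed to 2544 CPM in AAV-STOP and 2624 CPM in AAV-TAU, a ratio of 1.03, and 17 of 19 lists and 83 of 128 markers were higher in AAV-TAU. Of the 19 lists, 3 had larger ratios than the 48 genes: those of CA1-like (35.3 and 50.8 CPM, 1.44), Cajal-Retzius-like (15.6 and 20.4 CPM, 1.30) and choroid plexus or ciliated epithelium-like cells (64.8 and 82.0 CPM, 1.27). In oligodendrocyte-like nuclei the other lists summed to 2456 and 2662 CPM, a ratio of 1.08, with 18 of 19 lists higher. There the lists of CA2-like (18.1 and 26.9 CPM, 1.48), Cajal-Retzius-like (27.5 and 41.1 CPM, 1.49) and endothelial-like cells (6.40 and 9.82 CPM, 1.53) had larger ratios than the 48 genes, while the class's own markers went from 19986 to 17948 CPM. In the 13 classes the ratio of the summed other lists ran from 0.909 to 1.09. No marker of another class was at 0 in granule-like nuclei of either library. The part of these transcripts and of RNA quality in the higher level of the 48 genes was not tested.

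Other genes of the pathway came from lists of named genes and of the mitochondrial ribosomal protein genes. The remaining nuclear subunits had ratios like the 48: in granule-like nuclei 24 of 31 read were higher (8.2% of all genes), with a median log2 ratio of 0.35 against 0.32 for the 48 and 0.06 for all genes. Cycs, the cytochrome c that carries electrons from complex III to complex IV, was at 31.8 and 47.4 CPM, a ratio of 1.49 (1.36 to 1.63). Atp5k, a subunit of complex V, was at 16.9 and 26.5 CPM, and Ndufs6 of complex I at 13.2 and 21.2 CPM. The mitochondrially encoded subunits summed to 2446 and 3421 CPM, a ratio of 1.40 (1.38 to 1.41), with 12 of 12 read higher. Of these mt-Nd2 was at 142 and 211 CPM. In fibroblast-like nuclei the same list had a ratio of 0.94, with none of 9 higher, beside a ratio of 1.40 for the 48 nuclear genes. The mix of clusters in that class differed between the libraries, and its part in either ratio was not tested.

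Factors that build or regulate the complexes had smaller ratios. Of the assembly factors 6 of 35 read were higher in granule-like nuclei (8.2% of all genes), with a median of 0.11. Among the 6 were the complex III assembly factor Uqcc2 (15.1 and 23.0 CPM) and the copper chaperone Cox17 (18.5 and 26.1 CPM). Of the transcriptional regulators none of 13 was higher or lower, with a median of 0.03, where 8.2% of all genes were higher and 0.285% lower. Ppargc1a, a coactivator of mitochondrial genes, was at 42.1 and 36.1 CPM, a ratio of 0.86 (0.78 to 0.94), and Esrrg at 78.1 and 72.2 CPM. Ppargc1a spans 113 kb and Esrrg 606 kb, and the part of gene span in the ratios of these lists was not tested. In astrocyte-like nuclei 3 of 10 regulators were lower and none was higher, where 10.7% of all genes were lower and 19.9% higher.

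Other mitochondrial lists lay between. Enzymes of the tricarboxylic acid cycle feed NADH and succinate to the chain. The cycle list also holds pyruvate dehydrogenase genes and Mdh1, whose enzyme is cytosolic. Of its genes 5 of 18 were higher in granule-like nuclei with a median of 0.14. Among the 5 were Mdh1 (87.1 and 118 CPM) and the mitochondrial malate dehydrogenase Mdh2 (54.9 and 74.2 CPM). Of the carriers and outer membrane proteins 10 of 19 were higher with a median of 0.27, and Slc25a4, the ADP/ATP carrier that exports the ATP made by complex V, was at 114 and 163 CPM. Of the mitochondrial ribosomal protein genes 12 of 66 were higher with a median of 0.18. Of all genes in granule-like nuclei 8.2% were higher. In oligodendrocyte-like nuclei 10 of 18 genes of the cycle list, 15 of 19 carriers and 29 of 71 ribosomal protein genes were higher. So was 1 of 12 regulators, against 19.4% of all genes in that class.

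Annotation limits some of these values. On GRCm38, 12 of the 48 genes overlap a gene on the other strand, among them Atp5j, which overlaps the GABP subunit gene Gabpa, and none overlaps one on its own strand. Pseudogenes named after Uqcrh, Atp5c1 and Atp5l exist in the annotation. How reads shared with copies were counted is not given in the sources used here, so the levels of these 3 genes are less certain. Copies annotated under other names were not sought, so the other genes may share this limit.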

How the data were processed

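Single-nucleus libraries (10x Genomics 3' v3.1) of 1 pool of 3 mice per group were used. The authors deposited matrices of UMI counts per gene and filtered barcode on mm10, with 32285 genes. Per the file headers they came from Cell Ranger 8.0.1, while the submitters' processing notes name Cell Ranger 4.0 and Seurat 4.4.0. No UMI or genes limit set here (500 UMIs, 300 genes) removed a barcode, and a mitochondrial share over 5% removed 4 AAV-STOP and 2 AAV-TAU barcodes. Scrublet in scanpy 1.11.5 (expected rate 0.15) marked 2639 AAV-STOP (13%) and 2338 AAV-TAU (11.9%) barcodes, which were left out.

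Nuclei of both libraries were clustered together, with no integration step, by their 15 nearest neighbours on 30 principal components of 3000 variable genes, using leidenalg 0.10.2 at resolution 1, with Python 3.11.15, numpy 2.4.6 and scipy 1.17.1. Clusters were named from marker lists by a score of at least 1.5 and a lead of 1, with 3 or more markers raised 2 times at 10 CPM or more. Left without a name were clusters under 30 nuclei and those whose 10 leading genes held more markers of another type. So were non-neuronal clusters with Rbfox3 over 50% of the median of neuronal clusters. The rule on leading genes left out a cluster of 234 AAV-STOP and 381 AAV-TAU nuclei that scored highest for CA3. The thresholds for naming were set after seeing the data. Raw counts were summed per class and library. A single library per group allows no test between groups, so none was made, and the intervals are exact Poisson and binomial 95% intervals. The calculation was tested on simulated counts before use. The 48 genes, the pathway lists, the limit of 1.2 times and the alternatives were chosen with earlier results of these data known. Values are printed for the 3 highest and 3 lowest genes of a class with 20 CPM or more in the higher library, the most counted gene of each complex and the 3 largest ratios of each pathway list in granule-like nuclei; other genes printed were chosen after their values were seen. Alternatives changed the doublets, clustering, scaling, depth, averaging, range of mitochondrial share, limits, pseudocount and fold. Gene spans came from GENCODE vM21 (GRCm38), which held all 48 genes, and 1 listed gene of the pathway lists was not among the symbols of the files.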

Additional observations from a re-analysis of the deposited data

Results flagged for a closer look

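Ndufs4 and Sdha went opposite ways in different classes. Ndufs4 had a log2 ratio of -0.41 in microglia-like nuclei (123 CPM in AAV-STOP and 90.9 CPM in AAV-TAU, ratio 0.74, 0.51 to 1.08) and of 0.33 in astrocyte-like nuclei (101 and 128 CPM). Sdha had a log2 ratio of -0.38 in fibroblast-like nuclei (142 and 108 CPM, ratio 0.76, 0.56 to 1.04) and of 0.35 in microglia-like nuclei (93.5 and 121 CPM, ratio 1.29, 0.88 to 1.94). The difference between the classes was not tested, and the intervals of counting error of the 2 lower values and of Sdha in microglia-like nuclei hold a ratio of 1.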

How the results depend on the processing

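The 45 results (summed log2 ratios and counts of higher genes in 13 classes, log2 ratios of the complexes in 3 classes chosen after their values were seen, and 4 counts or ranges) were recomputed under alternatives. Of 548 values, 421 stayed within counting error or within 1.5 times, 126 moved further and 1 reversed, the CA3-like sum in nuclei with a mitochondrial share over 0.3%. The summed level stayed higher in AAV-TAU in 12 or 13 of 13 classes under each alternative, and complex II had the lowest ratio in 8 to 12 classes. Counts of higher genes are given of the genes read, with the share of all genes higher in parentheses. In several small classes fewer genes could be read in thinned or divided nuclei, but in CA1-like and granule-like with a mitochondrial share over 0.3% the count fell with the same number of genes read. The cause was not tested. No paired analysis was possible because each group has 1 library, and for the same reason no replicate could be left out. With scaling by the median of ratios the summed log2 ratio was 0.25 in subicular or cortical-like, 0.23 in CA3-like, 0.23 in inhibitory neuron-like, 0.45 in oligodendrocyte-like, 0.24 in CA1-like and 0.26 in granule-like. The log2 ratio by complex there was 0.30 in complex V of granule-like, 0.35 in complex IV of granule-like, 0.29 in complex III of granule-like and 0.19 in complex I of granule-like. With nuclei thinned to 1500 UMIs the summed log2 ratio was 0.36 in immature neuron-like, 0.22 in subicular or cortical-like, 0.33 in CA3-like, 0.32 in CA1-like and 0.34 in granule-like. The number of higher genes there was 0 of 0 (13%) in newly formed oligodendrocyte-like, 0 of 0 (15.6%) in Cajal-Retzius-like, 3 of 5 (19.3%) in fibroblast-like, 9 of 14 (20.5%) in microglia-like, 12 of 20 (15.3%) in immature neuron-like, 6 of 15 (15.1%) in subicular or cortical-like, 17 of 25 (17%) in oligodendrocyte precursor-like and 12 of 19 (15.9%) in CA3-like. The log2 ratio by complex there was 0.44 in complex IV of granule-like. In nuclei with a mitochondrial share under 0.1% the summed log2 ratio was 0.58 in Cajal-Retzius-like, 0.70 in microglia-like, 0.36 in immature neuron-like, 0.34 in astrocyte-like, 0.31 in inhibitory neuron-like, 0.39 in oligodendrocyte-like, 0.32 in CA1-like and 0.35 in granule-like. The number of higher genes there was 0 of 0 (21.9%) in newly formed oligodendrocyte-like, 0 of 0 (27%) in Cajal-Retzius-like, 0 of 0 (21.5%) in fibroblast-like, 0 of 0 (15.9%) in microglia-like, 0 of 0 (18.4%) in immature neuron-like, 8 of 18 (15.5%) in subicular or cortical-like, 0 of 0 (14.3%) in oligodendrocyte precursor-like, 1 of 1 (16.3%) in astrocyte-like and 4 of 8 (15.9%) in oligodendrocyte-like. The log2 ratio by complex there was 0.90 in complex III of astrocyte-like, 0.10 in complex I of astrocyte-like, 0.42 in complex V of oligodendrocyte-like, 0.48 in complex IV of oligodendrocyte-like, 0.18 in complex II of oligodendrocyte-like, 0.23 in complex I of oligodendrocyte-like, 0.48 in complex IV of granule-like, 0.26 in complex III of granule-like and 0.31 in complex I of granule-like. In nuclei with a share over 0.3% the summed log2 ratio was 0.21 in microglia-like, 0.13 in immature neuron-like, -0.028 in CA3-like, 0.21 in inhibitory neuron-like, 0.46 in oligodendrocyte-like, 0.031 in CA1-like and 0.20 in granule-like. The number of higher genes there was 0 of 0 (18.5%) in newly formed oligodendrocyte-like, 0 of 0 (19.5%) in Cajal-Retzius-like, 5 of 9 (21.3%) in fibroblast-like, 3 of 10 (19.5%) in microglia-like, 4 of 22 (15.8%) in immature neuron-like, 12 of 20 (17.2%) in subicular or cortical-like, 8 of 16 (16%) in oligodendrocyte precursor-like, 14 of 20 (19.3%) in astrocyte-like, 2 of 29 (15.9%) in CA3-like, 2 of 47 (9.34%) in CA1-like and 13 of 48 (6.82%) in granule-like. The log2 ratio by complex there was 0.44 in complex IV of oligodendrocyte-like, 0.21 in complex V of granule-like, 0.25 in complex IV of granule-like, 0.23 in complex III of granule-like and 0.15 in complex I of granule-like. At a fold of 1.5 the number of higher genes was 1 of 9 (2.4%) in newly formed oligodendrocyte-like, 1 of 5 (4.14%) in Cajal-Retzius-like, 6 of 20 (5.27%) in fibroblast-like, 8 of 30 (5.6%) in microglia-like, 2 of 41 (1.75%) in immature neuron-like, 5 of 46 (1.11%) in subicular or cortical-like, 10 of 43 (2.69%) in oligodendrocyte precursor-like, 7 of 45 (3.52%) in astrocyte-like, 1 of 47 (0.332%) in CA3-like, 1 of 48 (0.325%) in inhibitory neuron-like, 15 of 48 (2.85%) in oligodendrocyte-like, 0 of 47 (0.267%) in CA1-like and 2 of 48 (0.274%) in granule-like. With doublets kept the summed log2 ratio was 0.36 in fibroblast-like and 0.32 in CA1-like. The number of higher genes there was 16 of 28 (16.5%) in newly formed oligodendrocyte-like, 8 of 13 (19.8%) in Cajal-Retzius-like and 3 of 7 (15.1%) in fibroblast-like. In nuclei with a share of 0.1 to 0.3% the summed log2 ratio was 0.26 in Cajal-Retzius-like, 0.36 in fibroblast-like, 0.56 in microglia-like, 0.39 in immature neuron-like, 0.20 in subicular or cortical-like, 0.24 in inhibitory neuron-like and 0.26 in CA1-like. The number of higher genes there was 0 of 0 (11%) in newly formed oligodendrocyte-like, 0 of 0 (17.2%) in Cajal-Retzius-like, 0 of 0 (18.8%) in fibroblast-like, 2 of 3 (17.7%) in microglia-like, 10 of 18 (16.3%) in immature neuron-like, 11 of 29 (14.1%) in subicular or cortical-like and 15 of 21 (16.4%) in oligodendrocyte precursor-like. The log2 ratio by complex there was 0.18 in complex II of oligodendrocyte-like and 0.32 in complex I of oligodendrocyte-like. In nuclei with 2000 or more UMIs the summed log2 ratio was 0.34 in microglia-like, 0.22 in immature neuron-like and 0.44 in oligodendrocyte-like. The number of higher genes there was 2 of 3 (17.2%) in Cajal-Retzius-like, 7 of 17 (18.9%) in fibroblast-like and 6 of 10 (15.4%) in microglia-like. The log2 ratio by complex there was 0.47 in complex IV of oligodendrocyte-like and 0.52 in complex III of oligodendrocyte-like. Averaged within clusters of resolution 2 the summed log2 ratio was 0.30 in inhibitory neuron-like and 0.44 in oligodendrocyte-like. As a mean over nuclei the summed log2 ratio was 0.37 in immature neuron-like and 0.33 in CA3-like. With clusters at resolution 2 the summed log2 ratio was 0.38 in immature neuron-like. With no filter beyond 1 UMI the number of higher genes was 33 of 48 (33%) in newly formed oligodendrocyte-like, 31 of 48 (37.4%) in Cajal-Retzius-like, 34 of 48 (33.7%) in fibroblast-like and 34 of 48 (29.8%) in microglia-like. With clusters at resolution 0.5 the number of higher genes was 10 of 17 (16.3%) in newly formed oligodendrocyte-like. Without mitochondrially encoded genes and Malat1 in the total the number of higher genes was 3 of 9 (14.5%) in newly formed oligodendrocyte-like. With a pseudocount of 10 CPM the number of higher genes was 3 of 9 (14.4%) in newly formed oligodendrocyte-like.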
